A study of Mus musculus with 4 samples.

Results

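The contacts described here are the strongest long-range pairs of the wild-type map around Epha4, a gene for an ephrin receptor tyrosine kinase, in mouse distal limb buds. A pair of 10 kb bins was a member when the bins lay 200 kb to 3 Mb apart, the WT raw count was at least 20 and the WT balanced value was at least 4 times the mean balanced value of all pairs at that distance. The rule found 1708 members among 500500 pairs of bins, or 6.41% of the 26642 pairs in that distance range with at least 20 WT counts. The members were thus chosen by WT raw counts and WT balanced values, which are given below as a description. The mutant libraries played no part in the choice.

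Capture Hi-C, in which crosslinked and ligated DNA is enriched with probes and read pairs count how often bins meet, was run with 1 library each of WT, DelB, DelBs and InvF, all at E11.5. The labels name no other allele, transgene or treatment in any group, and do not say whether the mutants carry 1 or 2 copies of the allele. The maps covered chromosome 1 in 1000 bins of 10 kb (mm9) and held 5155274 to 6073471 counts per library. DelB lacked 76390001 to 78060000 and DelBs lacked 76390001 to 77860000, so that a 200 kb segment from 77860001 to 78060000 was missing from DelB and present in DelBs. InvF carried an inversion of 74830001 to 75900000, and all of these intervals were located from the maps. In the published description of the alleles both deletions remove Epha4, the inversion lies on the side of Wnt6, and Pax3 is found past the deleted stretch. No mm9 annotation was at hand to place these genes. With 1 library per genotype, library and genotype cannot be told apart, no p-value is given, and the 95% intervals cover counting error alone, with reads treated as independent molecules.

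In mammalian chromosomes, cohesin extrudes loops of DNA until it meets CTCF bound in a blocking orientation. Contact maps then show domains, stripes that run from a fixed anchor, and bright focal points where a pair of anchors meets. In the limb bud the Epha4 domain spans a gene desert with limb enhancers, and the published alleles were made to ask how a deletion or inversion redirects such contacts.

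The members lay 310 kb to 2360 kb apart, with a median of 1540 kb. Their WT raw counts ran from 20 to 223 with a median of 30, and their balanced values from 4.00 to 22.4 times the mean with a median of 5.05 times. The count limit decided much of the membership at long range. Of the pairs with at least 20 WT counts, 0.385% were members at 200 to 500 kb, 15.3% at 1000 to 1500 kb and 69.6% at 1500 to 2000 kb, and all 133 beyond 2000 kb were. The 5 pairs just inside the 4-fold limit stood at 4.00 to 4.01 times the mean and the 5 just outside at 3.998 to 4.00 times. There were 113 members at exactly 20 counts, and 102 pairs with 19 counts passed the 4-fold limit. Balancing divides by the coverage of a bin, and 153 members had a raw count under 4 times the raw mean at their distance, 10 of them under 2 times.

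Members that touch, corners included, formed 329 clusters, of which 221 were single pairs and 37 held at least 5 pairs. The label of focal contacts fits some of these better than others. The largest cluster, with 400 pairs, joined 75710001 to 76050000 with 77340001 to 77590000, and the next, with 267 pairs, joined 75550001 to 75700000 with 77180001 to 77560000. These 2 areas held 39.1% of all members and spanned 340 kb by 250 kb and 150 kb by 380 kb, so they are broad fields of contact and not points. The 139 pairs of 72730001 to 73010000 with 73770001 to 73930000 spanned 280 kb by 160 kb, which is also an area and not a point. More compact were the 70 pairs of 78650001 to 78750000 with 79570001 to 79710000, at 100 kb by 140 kb. The 30 pairs of 77940001 to 78000000 with 78390001 to 78480000 spanned 60 kb by 90 kb.

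Most members belonged to 1 region. In 1245 members, 72.9% of all, a bin upstream of the deletions met a bin inside the interval that DelB lacks, the Epha4 side of the map. Another 298 lay upstream of the inversion and 130 downstream of the deletions, which makes 428 that no rearrangement touches. Of the 26642 pairs with at least 20 WT counts, 12640 were untouched in this sense. In 3981 a bin between the inversion and the deletions met the interval that DelB lacks, and 445 of these were members. A further 3401 had 1 inverted bin, whatever the partner, and 800 of these were members. The members used 371 anchor bins. Of these 185 served only as the upstream partner, 182 only as the downstream partner and 4 as both.

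The busiest anchors formed 2 hubs that face each other across the Epha4 side. The bin 75640001 to 75650000 had 74 members, 75630001 to 75640000 had 71 and 75650001 to 75660000 had 61, all as the upstream partner. The partners of the first ran from 76700001 to 77930000, so its contacts spread over more than 1 Mb and were not those of a single loop. On the opposite side 77510001 to 77520000 had 67 members, 77500001 to 77510000 had 61 and 77490001 to 77500000 had 52, all as the downstream partner. Coverage of these 6 bins was 1.27 to 1.71 times the median bin. Across the 108 bins with at least 10 members the median coverage was 1.34 times, against 0.919 times for bins that anchor no member.

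Whether anchors lie at domain boundaries was read from pairs under 200 kb apart, which the rule did not use. An insulation score in a 100 kb window gave 31 WT boundaries. Of the 108 busiest anchor bins 46.3% lay within 50 kb of a boundary, against 36.7% of all 1000 bins, and of all 371 anchor bins 40.7% did. The median distance to a boundary was 60 kb for the busiest bins and 80 kb for all bins. Boundaries lay after 75640000, 77520000 and 77930000, each inside or at the edge of a stretch of such busy bins on the Epha4 side, and after 72910000 and 78720000 inside 2 stretches outside it. The stretch from 73830001 to 73910000 ended 20 kb before a boundary, and the one from 72160001 to 72200000 lay 80 kb from the nearest. Others of the 22 stretches lay farther away, such as 76060001 to 76090000 at 130 kb, 77270001 to 77280000 at 180 kb and 76130001 to 76140000 at 200 kb. The median insulation score was -0.00136 for the busiest bins and -0.00392 for all bins, so the busiest bins were not lower. The share within 50 kb is a description of neighbouring bins and not of independent anchors.

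The untouched members ask whether strong contacts recur in other limb buds. WT counts were compared with mutant counts after each library was scaled to pairs that no rearrangement touches. The level of a contact is its raw count over the mean of the same library at that distance. The 428 untouched members had a median level of 5.52 in WT and 4.97, 4.77 and 5.09 in DelB, DelBs and InvF. At least 2 times the mean was reached by 403 of 428 in DelB (94.2%, exact binomial 91.5% to 96.2%), 402 in DelBs (93.9%, 91.2% to 96.0%) and 406 in InvF (94.9%, 92.3% to 96.8%). Untouched pairs with at least 20 WT counts that were not members did so in 37.6% of cases in WT and in 34.5%, 33.9% and 35% in DelB, DelBs and InvF. These pairs were not matched to the members for distance, and 20 counts is a higher level at long range. Nothing is therefore read from the gap between the shares. Of the 428 members, 335 stood at 4 times the mean or more in WT, where they were chosen, and 280, 280 and 281 in DelB, DelBs and InvF.

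Summed over the untouched members, counts relative to WT were 0.985 in DelB (0.968 to 1.002), 0.941 in DelBs (0.925 to 0.957) and 0.959 in InvF (0.942 to 0.976). These values set the level against which the rearranged classes are read. The members were picked for high WT values, and the part of that choice in the ratios was not tested. The untouched pairs with at least 20 WT counts that were not members stood at 0.983, 0.982 and 0.985. Same-side members, which can include pairs that only another allele rearranges, stood at 0.985, 0.936 and 0.974 (428, 458 and 908 members). Scaled by the total of all counts, these same-side ratios lay above 1, at 1.31, 1.24 and 1.03, so a direction this close to 1 depends on the scaling. None of the 428 was over 2-fold higher than WT in any of the mutants, against 0.0712%, 0.0396% and 0.0316% of all such untouched pairs in DelB, DelBs and InvF. In DelB 2, in DelBs 5 and in InvF 9 were over 2-fold lower, against 1.06%, 1.35% and 1.46%. With the pairs that only the other allele rearranges taken in, the shares of all same-side pairs were 0.0739% higher and 1.07% lower in DelB, and 0.0776% and 1.2% in DelBs, where 458 members counted.

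**Figure D1:**
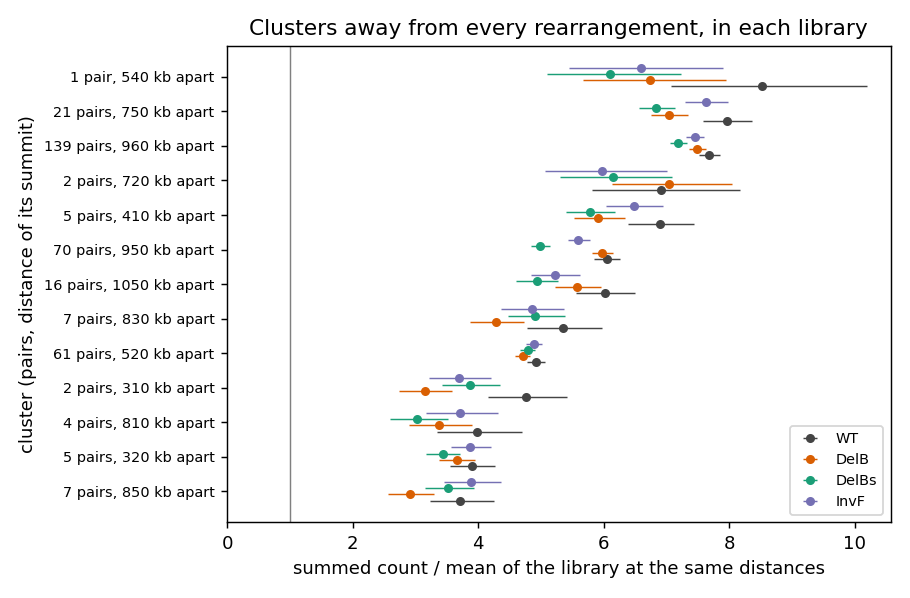
Level of each untouched cluster with at least 100 WT counts, as its summed count over the mean of the same library at the same distances, with exact Poisson 95% intervals. The 13 clusters lay between 2.91 and 8.52 times the mean over the 4 libraries, and the cluster of 70 pairs was lowest in DelBs.

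The strongest single pair of the map belonged to this class. It joined 72910001 to 72920000 with 73870001 to 73880000 at 22.4 times the mean and held 150 counts in WT against 144 (DelB), 124 (DelBs) and 133 (InvF) after scaling. Its cluster of 139 pairs held 7789 counts in WT against 8166 (DelB), 7789 (DelBs) and 7772 (InvF) after scaling. DelB stood slightly above the other libraries there, at 1.05 times WT (1.02 to 1.08). The same upstream anchor also met 73630001 to 73690000 in a cluster of 21 pairs, with levels of 7.97, 7.04, 6.84 and 7.63 in WT, DelB, DelBs and InvF. A cluster of 5 pairs joined it with 73310001 to 73330000, at levels of 6.89, 5.91, 5.78 and 6.48. The cluster of 61 pairs between 71550001 to 71740000 and 72140001 to 72210000 had scaled counts of 4284, 4266, 4348 and 4340 in the same order.

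Downstream of the deletions DelBs stood lower than the other libraries. The cluster of 70 pairs joining 78650001 to 78750000 with 79570001 to 79710000 held 3282 counts in WT against 3480 (DelB), 2871 (DelBs) and 3123 (InvF) after scaling. Over the 130 members on that side the ratio to WT was 0.990 in DelB (0.957 to 1.02), 0.851 in DelBs (0.822 to 0.880) and 0.911 in InvF (0.880 to 0.944). Pairs on that side with at least 20 WT counts that were not members stood at 0.953, 0.919 and 0.927. Pairs that passed the count limit but missed the 4-fold limit were thus also lower on that side. On the upstream side the ratios of the 298 members were 0.983, 0.973 and 0.976. Between the deletions, which were not used to choose members, DelB over DelBs was 1.16 on the downstream side (1.13 to 1.20) and 1.01 on the upstream side (0.993 to 1.03). Among untouched clusters with at least 100 WT counts the lowest ratios were 0.667 in DelB for 2 pairs of 79780001 to 79790000 with 80090001 to 80110000 and 0.735 in DelBs and 0.777 in InvF for the single pair of 73320001 to 73330000 with 73860001 to 73870000.

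The shape around the summits was measured for the 9 untouched clusters of at least 5 pairs. The mean of the 3 by 3 pairs at the summit, over the ring 80 to 100 kb away, had a median of 2.57 in WT and 2.46, 2.53 and 2.63 in DelB, DelBs and InvF. In the mutants it ran from 1.15 to 5.72 over clusters, so all 9 had a raised centre in libraries that did not choose them, though the lowest only slightly. From the summit the mean level fell from 7.73 in DelB, 6.78 in DelBs and 8.10 in InvF to 2.46, 2.38 and 2.44 at 50 kb. The rise above the surroundings thus lay within about 50 kb of the summit in all libraries.

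**Figure D2:**
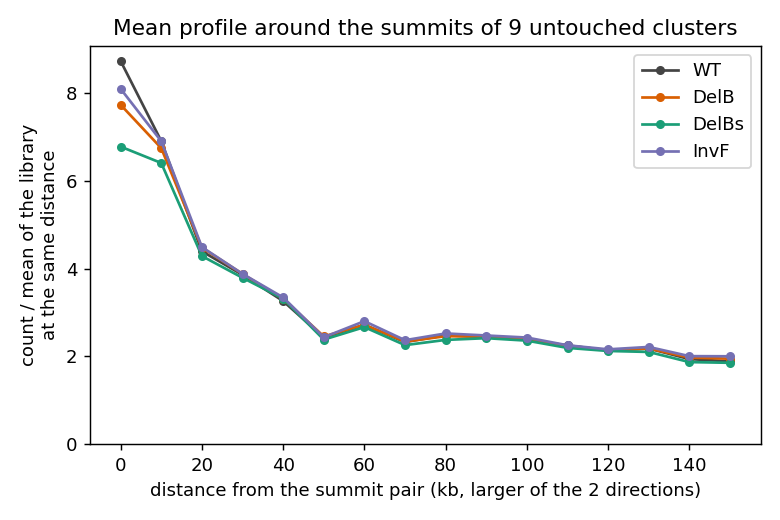
Mean level around the summit pair of the 9 untouched clusters, against the distance from the summit, for each of the 4 libraries. The curves fall from 6.78 to 8.73 times the mean at the summit to 2.38 to 2.46 times at 50 kb and 1.86 to 2.00 times at 150 kb, and WT, which chose the summits, is highest at the summit itself.

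Deletion of the Epha4 side removed most members by construction. In DelB 1280 members had a deleted bin, and the others were the 428 untouched ones, with 0 members joining opposite sides of the deletion. The 1280 kept 1207 counts against 40929 in WT, or 2.06% of the scaled WT level (1.94% to 2.18%). The source of these residual counts was not tested. In DelBs 1144 members had a deleted bin and stood at 1.28% of WT (1.18% to 1.38%).

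The retained segment from 77860001 to 78060000 let DelBs be compared at members that DelB lost. There 106 members joined a bin upstream of the deletion with a bin of the segment, and the deletion brought their bins from a median of 2075 kb to 605 kb apart. Their counts were 2774 in WT and 11156 in DelBs, a scaled ratio of 2.69 (2.58 to 2.80). In 91 of 106 the ratio was over 2-fold, against 89% of all 136 pairs of this class with at least 20 WT counts, and 0 were over 2-fold lower. These were the only members over 2-fold higher among the 564 followed in DelBs, where 0.853% of all pairs were. The rise was therefore that of the whole class, of which the members are the greater part. Relative to the mean at the distance on the allele, the members stood at 4.70 in DelBs (4.62 to 4.79). All 136 pairs of the class stood at 3.48 in DelBs (3.42 to 3.53). In WT, at the WT distance, the members stood at 12.5 (12.1 to 13.0). The WT level chose these members, so it is given as a description and the levels are not compared.

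The bin 77890001 to 77900000 carried 40 of the 106, with 1178 counts in WT, 5047 in DelBs and 725 in InvF before scaling. Its pair with 75640001 to 75650000, 2250 kb apart in WT, had scaled counts of 57 in WT, 173 in DelBs, 1.61 in InvF and 1.40 in DelB, where the bin is deleted. In the cluster of this pair, 30 pairs of 75600001 to 75690000 with 77860001 to 77930000 stood at 2.63 times WT in DelBs (2.44 to 2.83). The ratio was 3.36 for 6 pairs of 75900001 to 75960000 with 77890001 to 77900000 (2.84 to 3.99), the highest of the 6 clusters of this class with at least 100 WT counts. The level of the members on the allele differed along the upstream anchors. Members upstream of 75700000 stood at 7.39 times the mean on the DelBs allele (7.17 to 7.62), those from 75710001 to 75900000 at 5.45 times (5.23 to 5.68) and those from 75900001 to 76310000 at 3.38 times (3.29 to 3.48). Their WT levels were 17.0, 12.5 and 9.92 times, values that the rule used and that its count limit raises with distance. The zones thus differ in how their members were chosen. No level of all pairs of the class is given by zone, so nothing is read from the order of the DelBs levels.

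The segment also faces away from the deletion. The cluster of 30 pairs joining 77940001 to 78000000 with 78390001 to 78480000 had 3036 counts in WT, 2727 in DelBs and 2982 in InvF after scaling, and 68.4 in DelB, where its upstream anchor is gone. The ratio was 0.898 in DelBs (0.857 to 0.942) and 0.982 in InvF. Pairs with a bin of the segment on that side stood at 1.02 in DelBs over all 564 with at least 20 WT counts, of which 0.177% were over 2-fold lower, and 0 of the 30 members were. This contact thus remained next to the deletion, at a slightly lower count, while contacts across the deletion from the same segment rose.

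**Figure D3:**
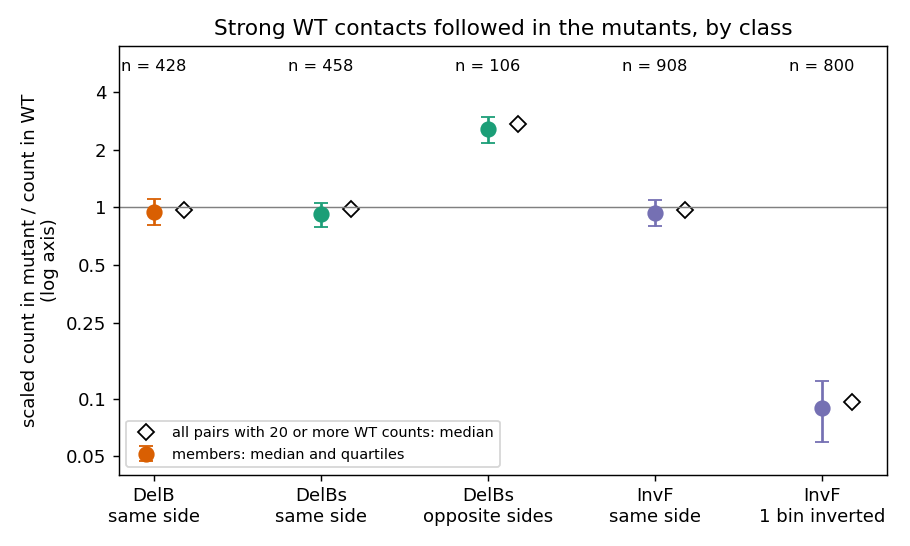
Scaled count in the mutant over the count in WT for single member pairs, with a pseudocount of 1, as median and quartiles per class (log axis), beside the median of all pairs of the class with at least 20 WT counts. Same-side members sit near 1 in all 3 mutants, opposite-side members in DelBs at 2.58 and members with an inverted bin in InvF at 0.0893, beside 2.72 and 0.0965 for all pairs of those classes.

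The inversion turned the 3 busiest upstream bins as a whole and left the busiest downstream bins in place, while its downstream end fell within another stretch of busy bins, from 75870001 to 76050000. In InvF 800 members had their upstream bin inside the inverted interval, 908 lay on the same side of it, and 0 had both bins inside. The 800 had 23610 counts in WT and 2097 in InvF, a scaled ratio of 0.0714 (0.0683 to 0.0747). The 445 members whose upstream bin lies between the inversion and the deletions, and whose partner lies in the interval that DelB lacks, had 14146 counts in WT and 17607 in InvF, a ratio of 1.001 (0.979 to 1.02). In 798 of the 800 the InvF count was over 2-fold lower, against 99% of all 3401 pairs of this class. The 2 exceptions both used the last inverted bin, 75890001 to 75900000. Of the 908 on the same side 15 were over 2-fold lower and 1 higher, against 1.25% and 0.0584% of all such pairs. Of the 445 kept with the Epha4 side 4 were lower and 1 higher, against 0.477% and 0.1%. Over all 1708 members this made 813 lower and 1 higher, where 13.9% and 0.0601% of all pairs were. Among same-side clusters with at least 100 WT counts the ratio was highest at 1.24 for 75900001 to 75960000 with 77890001 to 77900000 (1.02 to 1.52) and lowest at 0.728 for 75960001 to 75990000 with 77240001 to 77260000 (0.561 to 0.945).

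Along the chromosome the loss had a sharp edge. Members with an upstream bin from 75510001 to 75700000 stood at 0.0615 of WT (0.0577 to 0.0655) and those from 75710001 to 75890000 at 0.0704 (0.0655 to 0.0756). The last inverted bin stood at 0.377 (0.320 to 0.443), between the values on either side of it, against 0.370 for pairs in that bin that were not members. The next 2 bins, from 75900001 to 75920000, were at 1.26 (1.19 to 1.34). The ratio then was 0.954 from 75950001 to 76100000 (0.924 to 0.986) and 0.873 from 76100001 to 76370000 (0.831 to 0.917). Pairs in the same bins that were not members stood at 1.305, 1.08 and 1.01, so the rise beside the break was shared by the surroundings. Those other pairs also had at least 20 WT counts but missed the 4-fold limit that chose the members, so nothing is read from the gap between them.

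**Figure D4:**
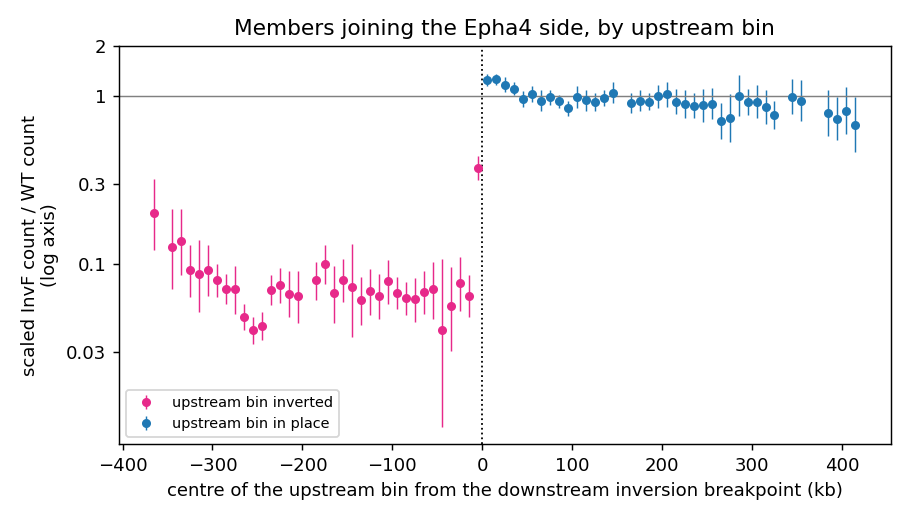
Scaled InvF count over WT count for members that join an upstream bin with the interval that DelB lacks, summed for each upstream bin with at least 3 members, against the distance of that bin from the downstream breakpoint, with exact 95% intervals (log axis). Inverted bins sit between 0.0406 and 0.203, and the bin at the breakpoint at 0.377. Bins in place sit between 0.680 and 1.27, highest at 15 kb from the breakpoint and lowest at 415 kb.

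The largest cluster shows both outcomes in 1 field. Its 214 pairs with an inverted upstream bin had 6796 counts in WT and 724 in InvF, a ratio of 0.0857 (0.0792 to 0.0925). Its 186 pairs with an upstream bin in place had 6333 and 8832 counts, a ratio of 1.12 (1.09 to 1.16). The pair of 75920001 to 75930000 with 77510001 to 77520000, one of the 8 strongest in WT, had scaled counts of 64 in WT and 80.4 in InvF. The pair of 75640001 to 75650000 with the same partner had 82 and 1.61. The downstream hub bin 77510001 to 77520000 thus kept its 37 members with bins in place at 1.08 (1.01 to 1.15) and had its 30 members with inverted bins at 0.0521 (0.0408 to 0.0656).

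The level of the inverted members was then set against the distance on the new allele. The inversion moved them from a median of 1750 kb to 2460 kb apart. On the InvF allele they stood at 1.65 times the mean at the new distance (1.58 to 1.73). In WT, at the old distance, they stood at 10.2 times (10.1 to 10.4). The WT level chose these members, so it is given as a description and the levels are not compared. With the distance of the reference order the InvF level would be 0.725. The lowest clusters with at least 100 WT counts were 3 pairs of 75810001 to 75820000 with 77070001 to 77100000, at 0.0330 (0.0105 to 0.0790), and 24 pairs of 75610001 to 75660000 with 77020001 to 77110000, at 0.0406 (0.0291 to 0.0554). The highest was 0.135 for 4 pairs of 75530001 to 75560000 with 77500001 to 77520000 (0.0772 to 0.224).

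The sequence that the inversion brought to each member position was then read in the same way. For each of the 800 members the incoming bin is the one that lies, on the InvF allele, where the member's upstream bin lies in WT, and it keeps the same downstream partner. These incoming pairs had 1747 counts in WT and 12424 in InvF, a rise of 5.72 times (5.44 to 6.02). The incoming sequence thereby reached 0.423 of the WT count of the sequence it replaced (0.414 to 0.432), or 0.499 with balanced values. The rule chose the replaced pairs for high WT values. These shares and those by position below are therefore descriptions, and no pairs that were not members are set beside them. On the InvF allele it stood at 4.30 times the mean (4.22 to 4.37), against 1.61 times at its own distance in WT.

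The share of the WT count that the incoming sequence reached differed with the position. Over the 174 members at 75800001 to 75900000, replaced by 74830001 to 74930000, the incoming count was 0.898 of the WT count (0.865 to 0.931), and 1.06 with balanced values. Over the 162 members at 75710001 to 75800000 it was 0.501 (0.477 to 0.526), and over the 411 members at 75600001 to 75700000, replaced by 75030001 to 75130000, it was 0.207 (0.199 to 0.215), or 0.298 with balanced values. The outgoing sequence had fallen to 0.0926, 0.0757 and 0.0565 at the same positions. Incoming coverage was 0.930 times the median bin in the first of these windows and 0.648 times in the last, and its part in the difference was not tested beyond the balanced values. Members were picked for high WT counts, and no share over all pairs of this class is given, so the next count is descriptive. In 63 of the 800 positions the incoming pair reached or passed the WT count, 61 of them in the first window.

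Within that window 2 incoming bins stood out, chosen after their values were seen. The bin 74850001 to 74860000 met the 13 partners of its position with 955 counts in InvF against 24 in WT, at 17.3 times the mean on the allele (16.2 to 18.4). The bin it replaced, 75870001 to 75880000, had stood at 8.02 times in WT (7.20 to 8.90). The neighbour 74860001 to 74870000 met 8 partners with 519 counts in InvF against 23 in WT, at 14.5 times (13.3 to 15.9), where the outgoing bin had stood at 7.09 times. Both incoming bins had coverage close to the median, at 1.02 times. With balanced values they stood at 9.49 and 8.17 times the mean, and the bins they replaced had stood at 5.27 and 6.54 times in WT. The rule used the WT levels of the replaced bins, so those are given as a description and the levels are not compared.

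**Figure D5:**
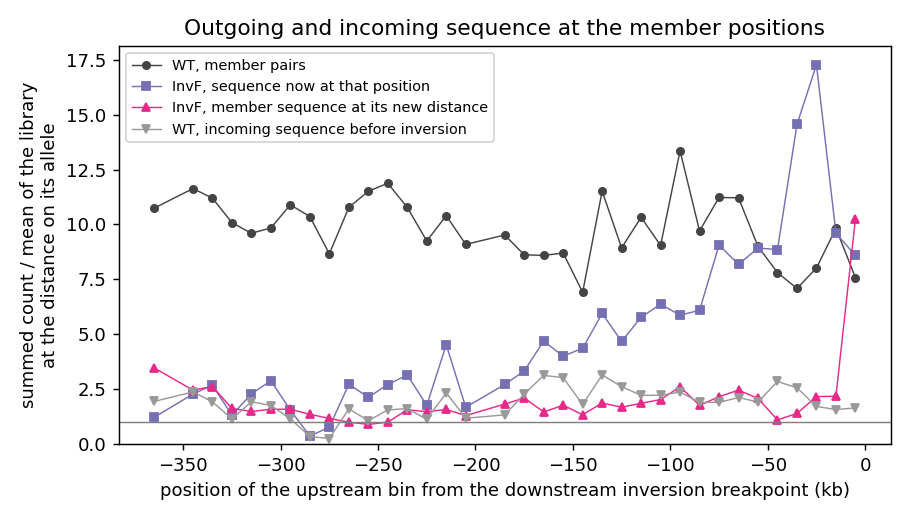
Level over the mean of the library at the distance on its own allele, for each inverted upstream bin with at least 3 members, against its distance from the downstream breakpoint. The rule used the WT level of the member pairs, which is drawn as a description. Member pairs in WT lie between 6.91 and 13.3 times, the same sequences in InvF between 0.906 and 3.48 times except for 10.3 times in the bin at the breakpoint, and the incoming sequence in InvF rises towards the breakpoint to 17.3 times at 25 kb from it, where its own WT level was 1.72 times, and is 9.60 and 8.59 times in the 2 bins nearest the breakpoint.

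The rule was also applied to the InvF map itself, to see how far the lists agree among pairs that the inversion does not part. Among pairs on the same side of the inversion it found 908 members in WT and 1239 in InvF, and 558 were in both, which is 61.5% of the WT list and 45.0% of the InvF list. The InvF library is 1.24 times deeper by the scaling above, and the limit of 20 counts was the same. The InvF mean at each distance includes pairs that the inversion parted or joined, so the 4-fold limit can differ as well. Same-side pairs next to the break were also higher in InvF, as given above. The part of each in the overlap was not tested. The rule was not applied to the maps of the deletions, where the mean at each distance includes deleted pairs.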

How the data were processed

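Per the file names, the authors deposited raw counts for pairs of 10 kb bins, with a mapping quality limit of 30, and a KR-balanced signal for the same pairs. Per the submitters' processing notes, Bowtie2 2.2.6 was used with build mm9. Removal of PCR duplicates is not stated in the labels. The authors' difference maps were not used here, and all tables had a sample (0 unmatched columns).

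Computation used Python 3.11.15, numpy 2.4.6, scipy 1.17.1, pandas 2.3.3 and matplotlib 3.10.9. Unlisted pairs counted as 0. A deletion was taken as the longest stretch of bins holding less than 10% of their WT share, and the inversion was the breakpoint pair with the highest contrast of 100 kb corner blocks. Scaling used the counts of pairs 20 kb to 2 Mb apart that no rearranged interval contains or separates (DelB 1.43, DelBs 1.50, InvF 1.24). Expected levels are means of the same library over such pairs and do not correct for coverage of single bins. Ratios have exact conditional binomial and levels exact Poisson intervals at the 95% level, and a call meant past 2-fold with a pseudocount of 1. Boundaries were insulation minima at least 0.2 below the highest score within 200 kb on each side.

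The regions named are the 8 clusters with the most pairs, the 8 pairs with the highest balanced value over the mean, the 6 busiest anchor bins, and the 3 highest and 3 lowest clusters per mutant and class with at least 100 WT counts, of which some are printed. The clusters of 21 and 5 pairs that share the anchor of the strongest pair were named after their values were seen. The windows along the inversion, the incoming positions and the zones of the DelBs class were chosen after values were seen. The members and lists were chosen with earlier results of these data known. The functions were tested on simulated data with planted contacts, a deletion and an inversion. No sequence is shown, as no mm9 genome was used here.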

Additional observations from a re-analysis of the deposited data

How the results depend on the processing

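The DelBs ratio across the deletion stayed above 1 and the InvF ratio of inverted members below 1 under the alternatives run, while the membership and small differences from 1 followed the settings. The 1708 members became 3586 at 3 times and 471 at 6 times the mean, 2837 with 10 and 456 with 40 counts, and 3802 with raw counts over their mean, of which 1555 were shared. The 329 clusters became 120 when joined within 2 bins. The percent of untouched members past the limit was 98.8, 97.4 and 97.4 at 1.5 times, 65.4, 65.4 and 65.7 at 4 times, and 99.8, 98.8 and 98.8 with balanced values, in the order DelB, DelBs and InvF.

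Same-side ratios for DelB, DelBs and InvF (0.985, 0.936 and 0.974) were 1.31, 1.24 and 1.03 scaled by the total, on the other side of 1. The total counts the deleted interval, which bears on DelB and DelBs, and for InvF the cause was not tested. They were 0.928, 0.886 and 0.954 with each distance matched, 0.960, 0.912 and 0.948 with balanced values, 1.004, 0.916 and 0.997 for members at 6 times the mean, and 1.06, 1.002 and 1.06 over 3 by 3 pairs, which take in neighbours the rule did not choose. The InvF value was 0.959 without 20 kb around breakpoints. The DelBs ratio of 2.69 across the deletion was 3.55 by the total, 2.504 with distances matched, 2.50 with balanced values, 3.12 with 40 counts, 2.54 at 6 times and 2.93 over 3 by 3 pairs. The InvF ratio of 0.0714 was 0.0754 by the total, 0.0776 balanced, 0.0424 with 40 counts, 0.0545 at 6 times, 0.0651 without 20 kb around breakpoints and 0.0873 over 3 by 3 pairs. For members kept beside the inversion 1.001 became 1.06 by the total, 1.02 with 40 counts, 1.09 at 6 times, 0.957 without 20 kb and 1.14 over 3 by 3 pairs.

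Members past 2-fold in DelB, 0 higher and 2 lower, were 3 and 0 by the total, 3 and 27 at 1.5-fold, and 0 lower over 3 by 3 pairs. In DelBs the 5 lower were 1, 45 and 0, and in InvF the 1 higher was 2, 21 and 0, in the same order. With the distance in the reference order the DelBs level of 4.70 across the deletion would be 31.2 and the InvF level of 1.65 would be 0.725. DelB over DelBs, 1.05, was also 1.05 by the total, an alternative chosen after seeing the data. No paired analysis was possible because each genotype had 1 library. Counts of 20 to 40 per pair limit single members to changes near 2-fold.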
